A study of Mus musculus with 4 samples.

Results

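The genes of programmed cell death and its control by survival factors and tumour necrosis factor (TNF) receptors were followed in the left hippocampus of mice that overexpress a mutant amyloid precursor protein. They were taken by gene symbol, by a rule that uses no measured value, though with earlier results of these data known, and comprise the BCL2, BNIP, BAG, caspase, BIRC, TNF receptor and TRAF families together with Bad, Bak1, Bid, Mcl1, Apaf1, Cycs, Fas, Fadd, Cflar, Xiap, Nfkbia and Rela. On the array they were represented by 87 of 12488 probe sets, for 55 of 8252 genes with a probe set of their own. Each probe set pools the readings of several short oligonucleotides for a transcript. Bax, Trp53 and Nfkb1 belonged to the same selection and were not analysed here, since no probe set was paired with these symbols alone.

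RNA was profiled in males aged 12 months. The control group was nontransgenic C57B6/SJL mice (2 arrays), and the other group was Tg2576 mice, labelled APPSw (2 arrays). Tg2576 carries a human amyloid precursor protein transgene with the Swedish mutation, driven by a hamster prion protein gene vector, and is a model of amyloid deposition in which neuron loss is limited. Values are MAS 5.0 signals on a linear scale, given in the order array 1, array 2 of each group. Array medians were 926 and 988 on the control arrays against 1033 and 1013 on the APPSw arrays. The labels name no separate litters, so the p-values rest on the spread between 4 samples only, part of which may be technical, and the number of arrays limits the precision of every value. All 15 marker genes of hippocampal principal neurons on a list fixed for the tissue were measured, and 14 had a probe set above the signal filter described next. The tissue is a mixture of cells, and fewer cells of a type cannot be told apart from less RNA per cell.

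Cell death by the intrinsic route is set by the BCL2 family at the outer membrane of mitochondria. Its inhibitors, such as BCL2, BCL-XL (Bcl2l1) and MCL1, bind the pore formers BAX and BAK, and BH3-only proteins such as BAD, BID and BIM (Bcl2l11) counter the inhibitors. Cytochrome c (Cycs) released through the pores assembles with APAF1 into the apoptosome, which activates caspase 9 and then the executioner caspases. The extrinsic route starts at FAS or TNF receptor 1, which recruit FADD and caspase 8, or TRAF2 and the kinases that activate NF-kB, a factor whose targets include its own inhibitor IκBα (Nfkbia) and several survival genes. In the adult brain most of these genes are transcribed at some level without cell death, because the pathway is switched largely by cleavage, phosphorylation and protein binding.

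Of the 87 probe sets, 1 was a manufacturer's control for Fas and was left out of the fit. Of the other 86, 57 (40 genes) had a mean log2 signal at or above the 40th percentile of the array, a geometric mean signal of 565, and 29 lay under it. Of the 55 genes, 15 had no probe set at or above this signal: Fas, Tnfrsf4, Tnfrsf8, Tnfrsf9, Tnfrsf11b, Traf1, Traf3ip2, Traf5, Casp1, Casp4, Casp6, Casp8, Casp12, Birc3 and Birc5. MAS 5.0's present and absent calls were not used here, so a low signal is not a statement that a transcript was absent.

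No gene of the group passed the test. With limma's moderated test and Benjamini-Hochberg adjustment over 7453 kept probe sets, 0 of the 57 had an adjusted p under 0.05, where the share over all kept probe sets was 0%, and the lowest adjusted p among the 57 was 0.599. At an unadjusted p under 0.05, 4 were higher in APPSw mice, against 4.72% of all kept probe sets, and 1 was lower, against 3.33%, which makes 5 either way, against 8.05%. The 4 higher probe sets were Casp14, both of Bad and a Tnfrsf1a probe set, and the lower one was a Bnip2 probe set. The counts were 2 higher and 5 lower after each array was centred on its median. They were 3 and 3 after quantile normalization or with the replicate number as a block. Over all 7453 kept probe sets the counts either way were 600 as reported, 674 after centring, 580 after quantile normalization and 559 with the block. With an array left out, the median log2 difference of the 57 ran from -0.037 to 0.047.

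The spread of differences over the group was close to that over the whole array. Both APPSw arrays lay above both controls for 13 of the 57 probe sets (22.8%), against 22.2% of all kept probe sets. They lay below both controls for 10 of 57 (17.5%), against 19%. The groups thus did not overlap for 23 of 57 (40.4%), against 41.2%. The median log2 difference, APPSw minus control, was 0.065 over the 57 and 0.018 over all 7453, and the median size of a difference was 0.22 and 0.19. The 57 differed between the controls by 1.18-fold at the median and between the APPSw arrays by 1.23-fold. The median difference between the group means was 1.16-fold. A group mean varies less than a single array, so these values cannot show whether the groups differed by more than replicates do. Of the 57, 34 (59.6%) lay above 0 and 23 below. After median centring 20 (35.1%) lay above 0, with a median of -0.032, while over all kept probe sets the share moved from 52.7% to 39.2%. The median of all 12422 probe sets other than manufacturer's controls was 0.097 higher in log2 in APPSw mice than in controls. Median centring takes this same amount from every log2 difference. The centred medians of single families below are therefore the same shift each time and not separate checks.

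**Figure D1:**
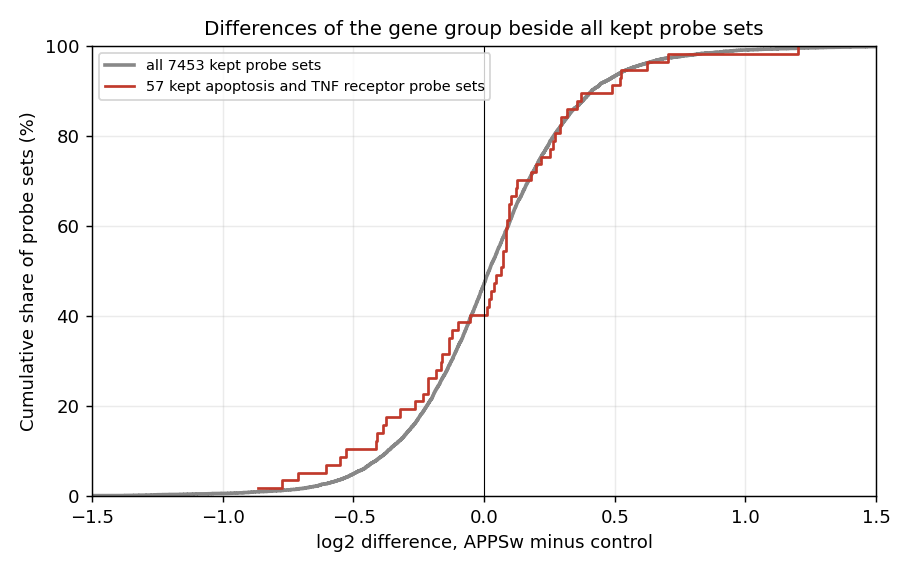
Cumulative share of probe sets (vertical axis, percent) at or below each log2 difference, APPSw minus control (horizontal axis), for the 57 kept probe sets of the group (red) and all 7453 kept probe sets (grey). The curves run close together, with medians of 0.065 and 0.018.

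Differences of 0.4 or more in log2 with no overlap of the groups were found for 11 of the 57 probe sets, against 15.6% of all kept probe sets. They belonged to 9 genes: Casp14, Xiap, Bad and Tnfrsf1b on the higher side, Tnfrsf17, Mcl1, Bnip2 and Bag6 on the lower, and Tnfrsf1a on either side by different probe sets. Casp14 and Xiap passed the filter through their APPSw values, and Tnfrsf17 through its control values.

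**Figure D2:**
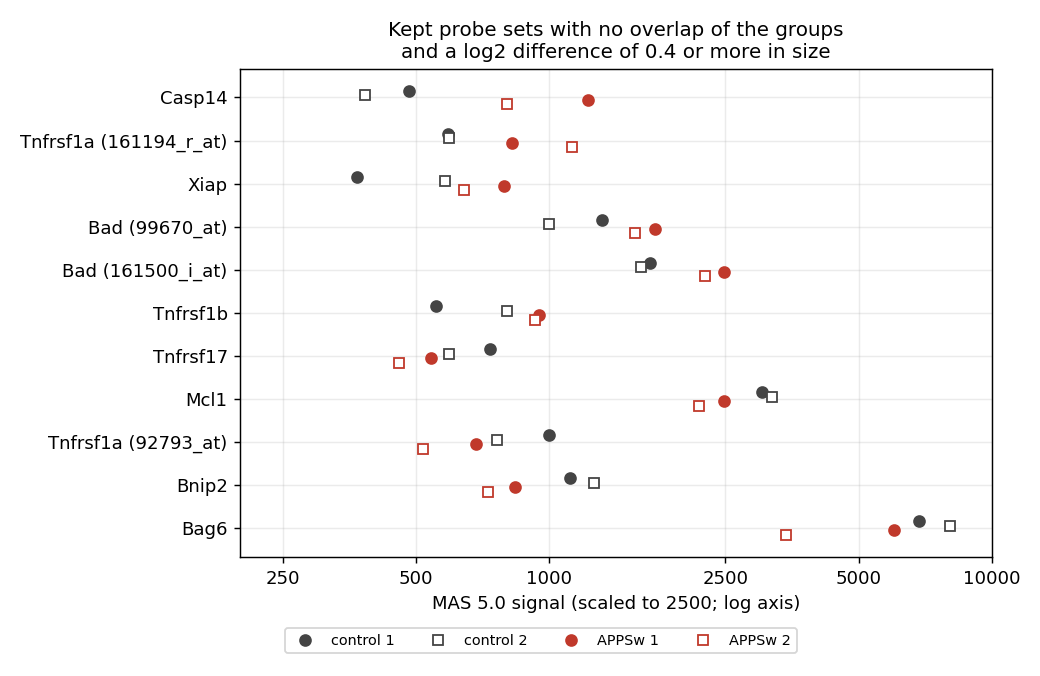
MAS 5.0 signal (horizontal log axis) of the 11 kept probe sets whose groups did not overlap and whose log2 difference was at least 0.4 in size, with a point for each array (grey, controls; red, APPSw; filled, replicate 1; open, replicate 2). Casp14 has the widest gap, and the 2 Tnfrsf1a probe sets lie on opposite sides.

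TNF receptors were represented by 12 genes, of which 7 had kept probe sets. Tnfrsf1b, the TNF receptor 2 of microglia and other immune cells, had signals of 554 and 803 in controls against 947 and 927 in APPSw mice. The APPSw values were nearly equal and exceeded both controls, and control 2 lay closer to them than to control 1. The log2 difference was 0.49 (adjusted p = 0.612, SE 0.23), a factor of 1.40, and lay at 0.22 to 0.76 with an array left out. Summed signals of 13 microglial marker genes were 56507 and 51751 on the control arrays against 52939 and 55375 on the APPSw arrays, with 0 values at 0, so the groups overlapped for the list. Its kept probe sets had a median difference of 0.25, and the part of microglia in the Tnfrsf1b difference was not tested.

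Tnfrsf1a, the TNF receptor 1 with a death domain, gave opposite results by its 2 probe sets. The plain probe set (92793_at) had signals of 995.5 and 759.9 on the control arrays against 681 and 518 on the APPSw arrays, all APPSw values being under the controls, for a log2 difference of -0.55 (adjusted p = 0.612, SE 0.23). The other (161194_r_at) had 590.4 and 594 in controls against 824.5 and 1126 in APPSw mice, all APPSw values being above the controls, for a difference of 0.70 (adjusted p = 0.599, SE 0.21). In the manufacturer's naming the suffix r marks a set for which some probe selection rules were dropped. With an array left out the differences ran from -0.75 to -0.35 for the plain set and 0.48 to 0.93 for the other. Groups that do not overlap cannot change sign in this way. No direction can therefore be given for Tnfrsf1a.

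Tnfrsf21, the death receptor DR6, which has been described as a receptor for an amyloid precursor protein fragment in axons, had signals of 4419.6 and 4395.5 on the control arrays against 3298 and 3778 on the APPSw arrays. The controls differed little and both APPSw arrays lay under them, with a log2 difference of -0.32 (adjusted p = 0.634, SE 0.18) and -0.42 to -0.22 with an array left out. Tnfrsf17, the B cell receptor BCMA, had 735 and 593 in controls against 539 and 457.5 in APPSw mice, a difference of -0.41 (adjusted p = 0.616, SE 0.20), and both APPSw values were under the filter's signal of 565. Tnfrsf19 (TROY) had a difference of -0.77 (SE 0.42), carried by APPSw 1 at 279, while APPSw 2 at 673 lay between the controls at 670.3 and 817. Tnfrsf11a (RANK) and Tnfrsf18 (GITR) had differences of -0.14 (SE 0.35) and 0.22 (SE 0.55) with overlapping groups. The 8 kept receptor probe sets had a median difference of -0.23, and -0.32 after median centring. Tnfrsf17 and Tnfrsf19 had a mean log2 signal under the filter in APPSw mice, so they entered the fit through their control values. With no filter the median was -0.14 over 15 receptor probe sets, and with a mean per gene it was -0.14 over 7 genes.

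Among the adaptors that couple death receptors to caspases, Fadd had signals of 570.1 and 693 on the control arrays against 868 and 760.5 on the APPSw arrays. Both APPSw arrays exceeded both controls, and the log2 difference was 0.37 (adjusted p = 0.622, SE 0.19). Casp8ap2 (FLASH), a nuclear protein of histone gene transcription first described as a caspase 8 partner, had 1359 and 1172 in controls against 1549.6 and 1537 in APPSw mice, again without overlap, with a difference of 0.29 (adjusted p = 0.656, SE 0.18). Cflar (FLIP), which blocks caspase 8 at the receptor, had 1015 and 928 on the control arrays against 1018 and 736 on the APPSw arrays. APPSw 1 was close to control 1 and APPSw 2 was lowest, for a difference of -0.16 (adjusted p = 0.841, SE 0.22) that was 0.069 without APPSw 2.

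The TRAF genes, which relay signals of TNF and interleukin receptors to NF-kB and JNK, had 5 kept probe sets, and in all 5 the groups overlapped. Over all kept probe sets the groups did not overlap for 41.2%. Dim probe sets of Traf1 and Traf3ip2, whose groups did not overlap, are given with the other dim ones. Traf2 had signals of 1962 and 2627 in controls against 2702 and 2507 in APPSw mice, where control 1 alone stood lower, and a log2 difference of 0.20 (adjusted p = 0.799, SE 0.21) that was -0.014 without control 1. Traf6 had 851 and 1613 on the control arrays against 1039.6 and 915.5 on the APPSw arrays by a probe set in which control 2 was the high value, with a difference of -0.26 (SE 0.32). Its other kept probe set had 754 and 910.5 in controls against 856 and 242 in APPSw mice, where APPSw 2 was the low value, with -0.86 (SE 0.57). The mean log2 signal of that probe set in APPSw mice was under the filter, so it entered the fit through its control values. The remaining Traf6 probe set, under the filter, ranged from 99.1 to 608, both in controls. Traf4 had differences of 0.084 (SE 0.20) and 0.072 (SE 0.38). The group's median was 0.072, and turned to -0.025 after median centring and -0.025 after quantile normalization.

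The kept probe sets of Rela and Nfkbia overlapped between the groups. Rela, the p65 subunit, had 6624 and 6815 on the control arrays against 8430 and 5552 on the APPSw arrays, where the APPSw arrays lay on either side of the controls, and a log2 difference of 0.026 (adjusted p = 0.985, SE 0.24). Nfkbia, whose transcription NF-kB itself drives, had 4877 and 3416 in controls against 4165 and 4054 in APPSw mice by a probe set in which the APPSw values lay between the controls, with a difference of 0.0098 (adjusted p = 0.996, SE 0.23). Its other probe set had 1764 and 1329 on the control arrays against 1318 and 2001 on the APPSw arrays and a difference of 0.085 (adjusted p = 0.941, SE 0.27). The sign of all 3 turned after median centring. The bases before the start of Nfkbia are shown because this feedback makes the gene a common readout of NF-kB. They are the 250 bases upstream of its RefSeq start (GRCm38.p6, chr12:55492648-55492897 on the minus strand), printed 5′ to 3′ on the gene's strand, with matches to GGGANNTTC, a core of the NF-kB site, in capitals. The match farther from the start lies on the printed strand and the nearer on the opposite one.
Nfkbia: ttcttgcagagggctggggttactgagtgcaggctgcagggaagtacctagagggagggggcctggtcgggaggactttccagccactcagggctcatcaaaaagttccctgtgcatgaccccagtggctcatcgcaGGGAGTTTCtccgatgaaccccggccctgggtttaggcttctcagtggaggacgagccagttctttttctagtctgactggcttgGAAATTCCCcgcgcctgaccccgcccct

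The same motif, on either strand of the 250 upstream bases, was present in 3.23% of all 32851 RefSeq starts. It was present in 2 of the 63 starts of the 52 genes of the group that the table holds, those of Nfkbia and Birc5. Birc5 (survivin), a gene of dividing cells, had signals under the filter on all arrays, 279.6 and 156 in controls against 149 and 218 in APPSw mice.

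Among the BCL2 family's death inhibitors, Mcl1 was the gene whose groups did not overlap. Mcl1, a short-lived protein that supports neuron survival, had signals of 3021 and 3187.5 on the control arrays against 2485 and 2177.5 on the APPSw arrays. Both APPSw values were under both controls, and the spread within each group was smaller than the gap. The log2 difference was -0.42 (adjusted p = 0.612, SE 0.18), a factor of 1.33 lower, and -0.51 to -0.32 with an array left out. Bcl2, by contrast, had 2859.7 and 3629.9 in controls against 3826 and 2991 in APPSw mice by a plain probe set and 1486 and 1468 on the control arrays against 1485 and 1549 on the APPSw arrays by another, with differences of 0.070 (SE 0.22) and 0.038 (SE 0.17). Bcl2l1, the main inhibitor of mature neurons, had 9757 and 7429.9 in controls against 8566 and 7040 in APPSw mice and a difference of -0.13 (adjusted p = 0.875, SE 0.22). The APPSw and control values of these genes interleaved. Bcl2l2 (BCL-W) had 0.12 (SE 0.20) and Bcl2l10 0.30 (SE 0.35). Of the 6 kept probe sets, Mcl1's alone had no overlap, where 41.2% of all kept probe sets had none. The median was 0.054, and -0.042 after median centring. That Mcl1 differed from the other inhibitors was not tested.

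Of the death promoters, Bad was the gene for which separate probe sets gave the same value. Bad is a BH3-only protein that binds BCL-XL and is held inactive by phosphorylation under growth factor signalling. The plain probe set (99670_at) had signals of 1312 and 1000.4 on the control arrays against 1733 and 1563 on the APPSw arrays, and 161500_i_at, drawn from a different sequence record, had 1686 and 1613 in controls against 2483 and 2253 in APPSw mice. Every APPSw value exceeded every control value of its probe set. The log2 differences were 0.52 (adjusted p = 0.612, SE 0.21) and 0.52 (adjusted p = 0.599, SE 0.17), factors of 1.44 and 1.43. With an array left out they lay at 0.33 to 0.72 and 0.45 to 0.59. Both probe sets read the same 4 RNA samples, so they are not independent replicates of the difference.

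Bid, the BH3-only substrate of caspase 8, had 928 and 884 on the control arrays against 1021 and 1136 on the APPSw arrays, without overlap, and a difference of 0.25 (adjusted p = 0.689, SE 0.17). Bcl2l11 (BIM), induced in neurons deprived of trophic support, had 858 and 735 in controls against 535.5 and 700 in APPSw mice, all APPSw values being lower, with -0.37 (adjusted p = 0.636, SE 0.21). Its other kept probe set had -0.23 (SE 0.39) with overlapping groups, at 794 and 1762 in APPSw mice on either side of the controls. Its remaining probe set, under the filter, had 119 and 124.5 on the control arrays against 30.7 and 50.2 on the APPSw arrays. Bak1, a pore former, had 1907 and 2421 in controls against 2194 and 1949 in APPSw mice and a difference of -0.056 (SE 0.20), and Bcl2l13 had 4103 and 3862 on the control arrays against 4729 and 3761 on the APPSw arrays and 0.083 (SE 0.19). So within the promoters Bad and Bid lay higher, a Bcl2l11 probe set lower and the rest overlapped. The median over 7 kept probe sets was 0.083, and -0.013 after median centring.

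The upstream bases of Bad and Mcl1, those of the death inhibitors and promoters above whose groups did not overlap with a difference of at least 0.4 in log2, are shown next, as 250 bases before the RefSeq start on GRCm38.p6. For Bad the first of its 2 listed starts was used (chr19:6941611-6941860 on the plus strand), and Mcl1 has a single one (chr3:95658471-95658720 on the plus strand). Neither window held a match to GGGANNTTC, to ACGTG (the core of the hypoxia response element) or to TGACGTCA (the cAMP response element), so no letters are in capitals.
Bad: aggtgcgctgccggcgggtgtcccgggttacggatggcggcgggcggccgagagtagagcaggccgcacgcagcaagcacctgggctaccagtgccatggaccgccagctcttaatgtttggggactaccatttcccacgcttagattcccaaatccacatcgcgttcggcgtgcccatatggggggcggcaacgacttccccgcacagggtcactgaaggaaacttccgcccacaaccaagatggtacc
Mcl1: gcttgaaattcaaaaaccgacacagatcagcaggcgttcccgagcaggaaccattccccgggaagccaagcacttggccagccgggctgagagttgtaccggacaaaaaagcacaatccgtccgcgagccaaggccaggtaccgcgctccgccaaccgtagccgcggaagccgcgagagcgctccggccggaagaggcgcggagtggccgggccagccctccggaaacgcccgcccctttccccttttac

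The BNIP genes encode BCL2-interacting proteins with roles in mitophagy and trafficking. Bnip3, a mitophagy receptor induced by hypoxia, had signals of 5947 and 5899 in controls against 4407 and 4658 in APPSw mice. The controls were nearly equal and both APPSw arrays lay below them, for a log2 difference of -0.39 (adjusted p = 0.612, SE 0.17), a factor of 1.31 lower, and -0.43 to -0.35 with an array left out. Bnip2 had 1114 and 1262 on the control arrays against 838 and 727.5 on the APPSw arrays by its plain probe set, with a difference of -0.60 (adjusted p = 0.599, SE 0.18), but 2176 and 2185 in controls against 3334 and 2217 in APPSw mice by a set with the suffix r, with 0.32 (adjusted p = 0.718, SE 0.24). Without APPSw 1 the latter was 0.024. Bnip1, a SNARE of the endoplasmic reticulum, had 3586 and 3209 on the control arrays against 3583 and 3819 on the APPSw arrays, with 0.12 (SE 0.17). The 4 kept BNIP probe sets had a median of -0.13, and -0.23 after median centring.

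The upstream bases of Bnip3 (RefSeq, GRCm38.p6, chr7:138909507-138909756 on the minus strand) are shown because hypoxia-inducible factor drives this gene. Capitals mark ACGTG on both strands, whose overlapping matches make the palindrome CACGTG.
Bnip3: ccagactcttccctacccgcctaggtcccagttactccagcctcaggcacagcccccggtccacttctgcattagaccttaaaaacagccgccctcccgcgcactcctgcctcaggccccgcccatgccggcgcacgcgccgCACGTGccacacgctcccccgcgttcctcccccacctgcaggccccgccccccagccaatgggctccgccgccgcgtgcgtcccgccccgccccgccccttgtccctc

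ACGTG occurred within 250 bases upstream of 16.6% of all RefSeq starts and of 15 of the 63 starts of the group. Among these 15 genes the direction of the expression difference was mixed, with Bnip3 and Tnfrsf21 lower and Fadd, Casp8ap2, Cycs and Xiap higher by kept probe sets without overlap of the groups (Xiap's kept through its APPSw values), and the others overlapping or dim. A match describes the letters only. TGACGTCA occurred upstream of 1.55% of all starts, and of Birc2 and Cycs in the group.

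BAG proteins are co-chaperones that release clients from HSP70. Bag6, which guards newly made membrane proteins, had 4 kept probe sets that did not match each other. One, 93922_g_at, had signals of 6852.5 and 8062 in controls against 6016.5 and 3419 in APPSw mice, with APPSw 2 far below the rest and a difference of -0.71 (adjusted p = 0.612, SE 0.30), and -1.12 to -0.30 with an array left out. The remaining sets had differences of -0.21 (SE 0.29), 0.018 (SE 0.25) and 0.10 (SE 0.26), all with overlapping groups. In 93921_at APPSw 1 was the highest array and APPSw 2 the lowest, at 6370.1 and 3689. Bag2 had 0.26 (SE 0.22) and -0.18 (SE 0.17) by its kept sets. Bag3, the stress-induced member, had 858 and 1051 on the control arrays against 917 and 472 on the APPSw arrays and a difference of -0.53 (SE 0.34), where APPSw 2 alone was low. Bag1, which binds BCL2, had 3327 and 3419.9 in controls against 3397 and 3788 in APPSw mice and 0.089 (SE 0.17). The median over 8 kept BAG probe sets was -0.083, and -0.18 after median centring.

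Of the apoptosome, Cycs had signals of 2600.3 and 2309.7 on the control arrays against 2809.8 and 2739.7 on the APPSw arrays. Both APPSw arrays were above both controls by a small margin, and the log2 difference was 0.18 (adjusted p = 0.774, SE 0.17). Apaf1 had 1322 and 1252 in controls against 937.5 and 1539 in APPSw mice, with the APPSw arrays on either side of the controls and a difference of -0.099 (adjusted p = 0.930, SE 0.27). Without APPSw 1 the Apaf1 value was 0.26.

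Caspases were represented by 8 genes, of which Casp2, Casp9 and Casp14 had kept probe sets. Casp9, the apoptosome's initiator, had 4. By 100366_at the signals were 1597 and 1208 on the control arrays against 1767.5 and 1788 on the APPSw arrays, without overlap, with a difference of 0.36 (adjusted p = 0.639, SE 0.20). By 100367_g_at, 103711_at and 100368_at the groups overlapped, with 0.096 (SE 0.18), 0.096 (SE 0.24) and -0.22 (SE 0.20). The mean log2 signal of 100368_at in APPSw mice was under the filter, so it entered the fit through its control values. Casp2 had 2339 and 2330 in controls against 2312.5 and 1886 in APPSw mice by its plain set and differences of -0.16 (SE 0.19) and -0.12 (SE 0.18). By the plain set APPSw 1 lay just under the controls and APPSw 2 further below. The caspase probe sets had a median difference of 0.096 over 7, and -0.0012 after median centring.

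Casp14, a caspase of cornifying skin, had the largest difference of the 57. Its signals were 481.5 and 384 on the control arrays against 1220.5 and 802 on the APPSw arrays, and the log2 difference was 1.20 (adjusted p = 0.599, SE 0.26), a factor of 2.30. It lay at 0.90 to 1.51 with an array left out. Both controls were under the filter's signal of 565, so the probe set entered the fit through its APPSw values.

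The other caspases lay under the filter's signal on every array. Casp8, the initiator at death receptors, had 43.1 and 172 in controls against 174 and 58.2 in APPSw mice, where each group held a higher and a lower array. Casp1, Casp4 and Casp12, the inflammatory caspases, had their highest signal in APPSw 2, at 519.7, 278 and 205. In APPSw 1 they had 234, 63.3 and 81.1, each between its controls. Casp6, an executioner linked to axon degeneration, ranged from 35.4 to 83.5.

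The inhibitors of apoptosis block caspases or tag signalling proteins with ubiquitin. Xiap, which binds caspase 9 and the executioners, had signals of 367 and 581 on the control arrays against 791 and 640.5 on the APPSw arrays by its kept probe set. The APPSw arrays exceeded both controls, control 1 being the lowest array, and the difference was 0.62 (adjusted p = 0.612, SE 0.27). Without control 1 it was 0.29. Control 1 was under the filter's signal of 565 and control 2 just above it, and the mean of the controls' log2 signals was under it, so this probe set too entered the fit through its APPSw values. Xiap's probe sets under the filter had 339 and 402 in controls against 337 and 729 in APPSw mice, and 22.5 and 186 on the control arrays against 12.7 and 55.6 on the APPSw arrays, both with overlapping groups. Birc2 (cIAP1), a ligase of the TNF receptor complex, had 1462 and 1865 in controls against 2016 and 1968 in APPSw mice, without overlap, and a difference of 0.27 (adjusted p = 0.703, SE 0.20), and 0.045 (SE 0.24) by its other set. Birc6 (BRUCE) had 2347 and 1716 on the control arrays against 1817 and 2427 on the APPSw arrays and 0.065 (SE 0.25). All 4 kept probe sets lay above 0, against 52.7% of all kept probe sets, with a median of 0.17, and 0.071 after median centring.

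**Figure D3:**
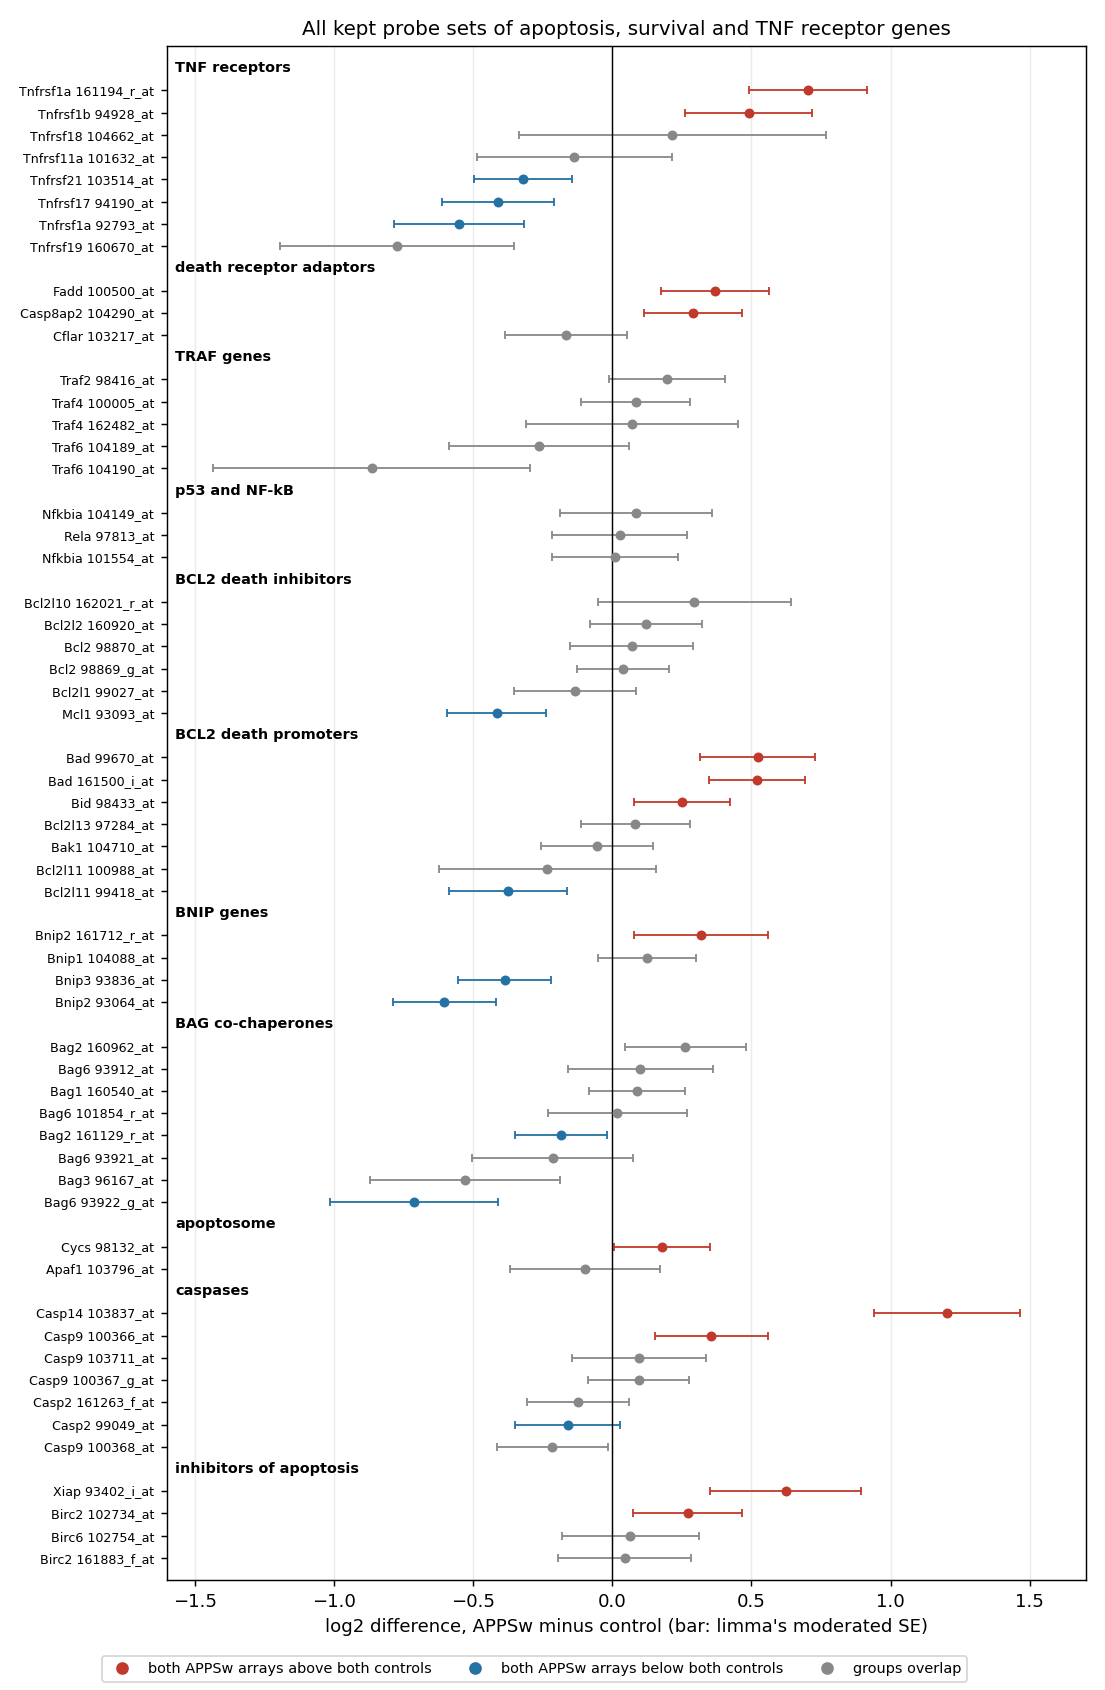
Log2 difference, APPSw minus control (horizontal axis), with limma's moderated SE (bars), for the 57 kept probe sets by family. Red, both APPSw arrays above both controls (13); blue, both below (10); grey, groups overlap (34).

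Fas, the prototype death receptor, was near the floor of the array. Its probe set had 12.8 and 26.6 in controls against 10.9 and 10.2 in APPSw mice, and the manufacturer's control probe set for Fas had 259.6 and 58.1 on the control arrays against 120.1 and 306 on the APPSw arrays, where each group held a high and a low array. Over the 29 dim probe sets of the group, signals ran from 10.2 to 729. Both APPSw arrays lay above both controls for 6 and below for 3. Over all 4969 dim probe sets these shares were 25.8% and 10.7%, and the median log2 difference was 0.21, so signals in this range were higher in APPSw mice across the array. In a fit with no filter, 3 of the 29 had an unadjusted p under 0.05, against 11.9% of all dim probe sets. None passed adjustment over 12422 probe sets by limma, the lowest adjusted p in the group being 0.482. The 3 were a Tnfrsf9 set at 17.9 and 19.7 in controls against 45.8 and 45.5 in APPSw mice, Traf1 at 42.4 and 53.1 on the control arrays against 23.8 and 20.7 on the APPSw arrays, and the Bcl2l11 set given above. They were named after their values were seen. Another Tnfrsf9 set, brighter but also dim, had overlapping groups and a difference of -0.71 in that fit.

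Where a gene had several kept probe sets, these often differed in sign. Of 13 such genes of the group, 8 had all their differences on the same side of 0 and 5 did not: Tnfrsf1a, Bnip2, Bag6, Casp9 and Bag2. Over all 925 such genes on the array 53.6% were on the same side, against 61.5% in the group. The span between a gene's lowest and highest difference had a median of 0.23 in the group and 0.30 over all genes. It was 1.25 for Tnfrsf1a, 0.92 for Bnip2 and 0.81 for Bag6, against 0.0025 for Bad. Kept probe sets with the suffix r had a median size of difference of 0.26 over the whole array (357 probe sets), and plain ones 0.19 (6060). Those with the suffix i, which a Bad probe set and Xiap's kept probe set carry, had 0.27 (114).

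**Figure D4:**
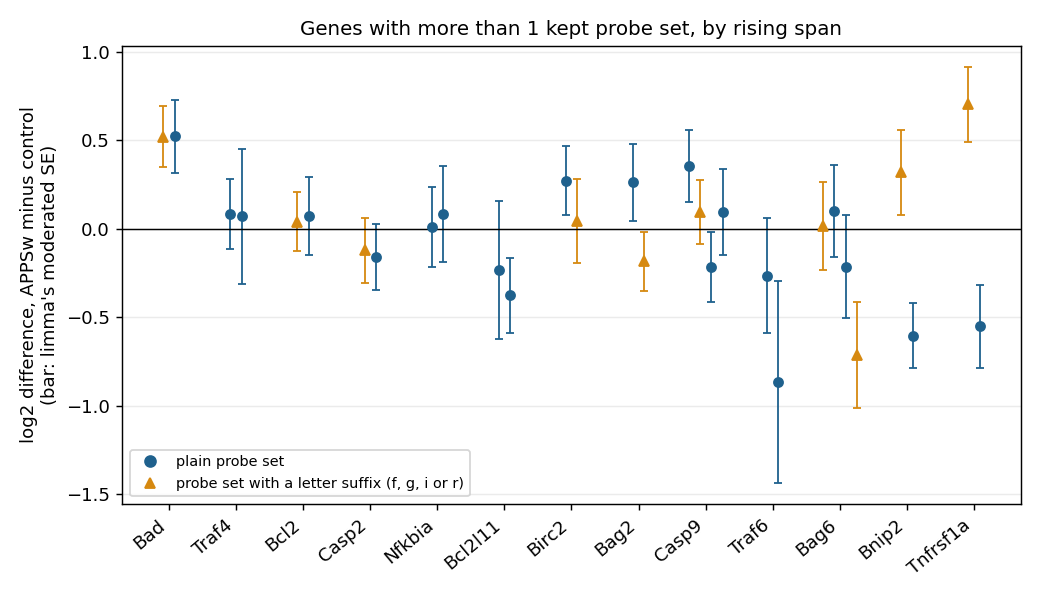
Log2 difference, APPSw minus control (vertical axis), with limma's moderated SE (bars), for each kept probe set of the 13 genes with more than 1, in order of span. Circles, plain probe sets; triangles, those with a letter suffix. Bad's values coincide, and those of Bnip2 and Tnfrsf1a fall on opposite sides of 0.

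Other genes of the same pathways, listed apart from the families above, gave a like picture. Of 86 probe sets (68 genes), 52 were kept. By limma 0 passed adjustment, against 0% of all kept probe sets. At an unadjusted p under 0.05 by the same test there was 1 higher (1.92%), against 4.72% of all kept probe sets. There were 2 lower (3.85%), against 3.33%. The median over the 52 was -0.013. Bok, a BCL2 relative abundant in CA3 neurons, had 9912 and 6633 in controls against 4542 and 4902 in APPSw mice, with -0.78 (adjusted p = 0.599, SE 0.24). Pdcd6ip (ALIX), an adaptor of endosomal sorting, had 1429.6 and 1371 on the control arrays against 1049.8 and 1005 on the APPSw arrays, with -0.45 (adjusted p = 0.610, SE 0.17). Its other kept probe set, which was brighter, had 4312 and 4940 in controls against 4895 and 4022 in APPSw mice. The groups overlapped there, with -0.057 (adjusted p = 0.946, SE 0.19). Lta, the TNF relative lymphotoxin alpha, had 1482 and 1674 in controls against 2891 and 2006 in APPSw mice, with 0.61 (adjusted p = 0.610, SE 0.23). Bok is also on the list of principal neuron markers, whose summed signals were 120524 and 121957 on the control arrays against 112118 and 91713 on the APPSw arrays, with 0 values at 0 and a median difference of -0.36 over 16 kept probe sets. The part of neuron content in the Bok difference was not tested.

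The TNF superfamily ligands, 11 genes, were nearly all dim, with 11 of 12 probe sets under the filter. Both APPSw arrays exceeded both controls for 7 of these 11 and lay below for 0, beside the 25.8% and 10.7% of all dim probe sets. Cd70 had 287 and 351 on the control arrays against 949 and 798 on the APPSw arrays, and Fasl, the FAS ligand, had 38.4 and 36.6 in controls against 75.2 and 101 in APPSw mice. Ltb, lymphotoxin beta, had 199.6 and 162 on the control arrays against 300.1 and 573 on the APPSw arrays, while Tnf itself had 128 and 156 in controls against 135 and 224 in APPSw mice with overlapping groups. These ligands were named after their values were seen. Markers of T and B lymphocytes, a source of such ligands, had summed signals of 1941 and 3017 on the control arrays against 2478 and 2862 on the APPSw arrays, which overlapped, and 1 of the 9 genes measured had a kept probe set. Values at 0 numbered 0.

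The remaining pathway lists had medians close to 0. They were -0.011 over 9 kept probe sets of receptor adaptors and kinases, 0.067 over 7 of NF-kB subunits and regulators, and 0.022 over 15 of mitochondrial death factors. They were 0.021 over 10 of p53 targets and regulators, and -0.099 over 10 of survival kinases. In none of these 5 lists was a probe set higher at an unadjusted p under 0.05 by limma, and Bok and a Pdcd6ip probe set, of the mitochondrial list, were the only lower ones. Over all kept probe sets 4.72% were higher and 3.33% lower at that level.

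Markers of other cells showed where single arrays stood apart. The 7 choroid plexus markers measured, of 12 listed, summed to 26364 and 17334 on the control arrays, with 140483 on APPSw 1 and 19172 on APPSw 2. The 3 erythrocyte markers measured, of 6 listed, summed to 9181 and 11556 on the control arrays, with 12229 on APPSw 1 and 20156 on APPSw 2. The high sum on APPSw 2 rests on Hba-a1, at 8678 and 10811 in controls against 11324 and 19525 in APPSw mice. Slc4a1 and Alas2, at 464 and 167 on APPSw 2, lay between their control values there. The 8 oligodendrocyte markers measured, of 9 listed, summed to 137870 and 146665 on the control arrays against 131850 and 112623 on the APPSw arrays. Values at 0 numbered 0 in these lists. Whether these cell contents had a part in the differences of single death or survival genes was not tested. Without APPSw 1, the array with the high choroid plexus signal, the differences of Bad were 0.45 and 0.45, that of Mcl1 was -0.51 and that of Bnip3 was -0.35. The groups of these probe sets did not overlap, so leaving out an array could not turn their direction. The part of choroid plexus content in them was not tested.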

How the data were processed

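Left hippocampal RNA of 4 mice was measured on Affymetrix arrays, 2 per group. The deposited table holds a linear signal intensity for each probe set and array, made by the authors in MAS 5.0 and brought to a common target of 2500, per the labels. The sources used here do not give the background settings. Probe sets were named from the platform annotation; all 87 symbols of the group matched RefSeq (GRCm38.p6). Another 4 probe sets, paired with several symbols, were not used. Manufacturer's controls (66) and probe sets under the 40th percentile of mean log2 signal were left out. Log2 signals entered a two-sided test in R 4.3.3 by limma 3.58.1 (lmFit, eBayes; 2 residual and 3.70 prior degrees of freedom), with Benjamini-Hochberg adjustment over 7453 probe sets. SE is limma's moderated one. On simulated data of this size over 20 runs, the fit recovered 87.2% of 4-fold and 9.95% of 2-fold changes.

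The members and lists were chosen with earlier results of these data known. Named genes are 24 core genes where measured, those at an unadjusted p under 0.05, those without overlap and at least 0.4 in log2, the one of highest kept signal per family, and those whose probe sets differ in sign. Alternatives were quantile normalization, median centring, no filter, the 60th percentile, a floor and a pseudocount of 250, a replicate block, an intensity trend, for medians each gene's mean over its kept probe sets, and each array left out, where the fit takes the lone array to vary as the other group does.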

Additional observations from a re-analysis of the deposited data

Results flagged for a closer look

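Under the signal filter, and so outside the comparisons, 6 probe sets of the group had both APPSw arrays above both controls. The log2 differences in a fit with no filter were 1.38 for Traf3ip2 (96221_at), 1.28 for Tnfrsf9 (103509_at), 0.91 for Bnip1 (161481_f_at), 0.64 for Tnfrsf11b (102887_at), 0.57 for Rela (162042_i_at) and 0.55 for Tnfrsf4 (102681_at). By limma 0 of them passed adjustment. Traf3ip2 had signals of 424 and 81.3 on the control arrays against 551 and 426 on the APPSw arrays, so its difference rests on control 2. Tnfrsf11b (osteoprotegerin) had 286 and 367 in controls against 425 and 596 in APPSw mice, and Tnfrsf4 (OX40) had 192 and 238.5 on the control arrays against 319 and 308 on the APPSw arrays. Rela and Bnip1 had brighter probe sets whose groups overlapped. So did Tnfrsf9, by a set also under the filter (97683_at). It had 526 and 313 in controls against 148 and 413 in APPSw mice, with -0.71 in the fit with no filter. No group held 4 arrays, so no array was tested for standing apart from its group.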

How the results depend on the processing

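Of 41 named kept probe sets, 23 kept their direction in each alternative that gave a value, and 0 passed the adjusted threshold in any. These 23 include both of Bad, both of Tnfrsf1a and of Bnip2, and those of Mcl1, Bnip3, Tnfrsf21, Tnfrsf1b, Fadd and Casp14. The groups of these named sets did not overlap, so leaving out an array could not turn their direction. Over all probe sets and over the group, 0 passed in every alternative by limma, with 402 to 816 probe sets at an unadjusted p under 0.05. No direction changed with a floor or pseudocount of 250. The choice of filter, the block and the intensity trend leave each log2 difference as it was, so they could not turn a direction. Median centring lowers every log2 difference by the same 0.097, so it could turn only differences between 0 and that value. Many of the 41 were named for a difference of at least 0.4 without overlap, and the share keeping direction over all probe sets is not given here.

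The group's probe sets at an unadjusted p under 0.05, 4 higher and 1 lower as reported, numbered 2 and 5 after median centring, 1 and 3 with the filter at the 60th percentile, and 2 and 2 with an intensity trend. The lower count was 3 after quantile normalization, 3 with no filter and 2 with a pseudocount of 250. Over all probe sets tested, the counts either way were 674 after median centring, 492 of 4969 with the 60th percentile filter and 658 with the trend. They were 580 after quantile normalization, 816 of 12422 with no filter and 613 with the pseudocount. With the 60th percentile filter 27 probe sets of the group were tested, of which 5 had both APPSw arrays above both controls and 6 below. The group's median was 0.025 after quantile normalization, -0.032 after median centring and -0.037 to 0.047 with an array left out. The sign turned to -0.031 for Bcl2 (98869_g_at), -0.0023 for Bag6 (93912_at) after quantile normalization. After median centring it turned to -0.087 for Nfkbia (101554_at), -0.012 for Nfkbia (104149_at), -0.071 for Rela (97813_at), -0.058 for Bcl2 (98869_g_at), -0.026 for Bcl2 (98870_at), -0.013 for Bcl2l13 (97284_at), -0.079 for Bag6 (101854_r_at), -0.0012 for Casp9 (100367_g_at), -0.00082 for Casp9 (103711_at), -0.032 for Birc6 (102754_at). With an array left out, values that changed sign spanned -0.40 to 0.069 for Cflar (103217_at), -0.014 to 0.41 for Traf2 (98416_at), -0.73 to 0.20 for Traf6 (104189_at), -1.78 to 0.046 for Traf6 (104190_at), -0.25 to 0.27 for Nfkbia (101554_at), -0.22 to 0.39 for Nfkbia (104149_at), -0.28 to 0.33 for Rela (97813_at), -0.11 to 0.25 for Bcl2 (98870_at), -0.33 to 0.064 for Bcl2l1 (99027_at), -0.082 to 0.25 for Bcl2l13 (97284_at), -0.23 to 0.26 for Bag6 (101854_r_at), -0.23 to 0.43 for Bag6 (93912_at), -0.61 to 0.18 for Bag6 (93921_at), -0.46 to 0.26 for Apaf1 (103796_at), -0.030 to 0.22 for Casp9 (100367_g_at), -0.19 to 0.39 for Casp9 (103711_at), -0.16 to 0.29 for Birc6 (102754_at). The cause was not tested.

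The replicate number as a block gave 3 higher and 3 lower probe sets of the group, and 0 past the adjusted threshold. The labels do not say that equal numbers pair the arrays. Deviations of same-numbered arrays correlated at -0.020, which cannot show whether the animals or their handling were paired. With 2 arrays a group, an exact permutation test cannot give a two-sided p below 0.333, and low signals bound what the dim genes can show.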
